A study of Homo sapiens with 14 samples.

Results

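The loci described here were small stretches of the genome, longer than 120 and at most 350 bases, that held exactly 1 annotated transcript on chromosomes 1 to 22. There were 2362 of them among 35671 loci and 204092 transcripts in all. This is the size of many structural RNAs that act without being translated. Both imprinted small RNA clusters, on chromosomes 14 and 15, were left out by rule, which removed 2 loci, and another 42 loci of this size were left out because they held more than 1 transcript.

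RNA was measured in HEK293T cells with a knockout of SETD2 and in wild type HEK293T cells, a human embryonic kidney line that carries the SV40 large T antigen. SETD2 is the enzyme that trimethylates histone H3 at lysine 36 along genes transcribed by RNA polymerase II. The labels list 3 RNA libraries for each genotype and name no further treatment, no clone and no way in which the knockout was made. The deposited tables give 1 value per group. They hold neither values for the individual libraries nor counts, so depth is unknown and the replicate spread could not be computed here. The level of SETD2 itself and the markers of HEK293T cells were not analysed here. The tables list transcripts without gene names, and no names were sought for longer genes. In bulk RNA, fewer cells of a type and less RNA per cell cannot be told apart. Whether the libraries came from separate cultures is not stated, so the spread behind the authors' p-values may be purely technical.

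Several families of RNA have this size. U1, U2 and U4 are small nuclear RNAs of the spliceosome, transcribed by RNA polymerase II from short promoters of their own. U4 enters the spliceosome paired with U6 and is released before catalysis. 7SK RNA, made by RNA polymerase III, holds the elongation kinase P-TEFb in an inactive complex. 7SL RNA, also made by RNA polymerase III, is the scaffold of the signal recognition particle, which guides secreted proteins to the endoplasmic reticulum. H/ACA small nucleolar RNAs guide the conversion of uridine to pseudouridine. The human genome also holds many pseudogene copies of these RNAs and of short protein-coding messages.

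The files gave no gene names. For 581 of the 2362 loci a name could be taken from RefSeq's table (GRCh38.p14), because the distances to at least 4 ends of neighbouring genes on the same chromosome were equal to the base in both. On a wrong chromosome the same search accepted 0 loci. Of the named loci, 144 were of the 7SL family, 58 of the 7SK family, 35 of U1, 19 of U4, 14 of U2, 10 of U6atac and 17 were 5S ribosomal RNA copies. Another 53 were small nucleolar RNA genes known by a locus number only, and 7 were named H/ACA small nucleolar RNAs. RefSeq called 477 of the 581 pseudogenes. In RefSeq itself, pseudogenes made up 76.6% of the 3032 genes of this size on these chromosomes and small nucleolar RNAs 13.0%.

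Little of the summed level lay at loci named as structural RNAs. The 368 named loci of structural RNA families held 698 FPKM of the summed level in knockout cells, or 4.31%, and 1795 FPKM in wild type cells, or 9.90%. Of these sums, the loci named as U4 held 336.3 FPKM in knockout cells and 1288 FPKM in wild type cells. FPKM are fragments counted per unit of transcript length and per unit of library size. The 1781 loci without a name held 94.6% in knockout cells and 89.2% in wild type cells. What these loci are is not given in the files, and they are named below by position on hg19. No source used here says how the authors treated reads that match several copies, so values of near-identical copies of 7SL, U1, U2, U4 and 7SK are uncertain.

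Most of the small loci were listed at 0. A value of 0 in both groups was listed for 1895 of them, or 80.2%, against 37.7% of all transcripts. Among other loci with 1 transcript the share was 96.9% up to 120 bases and 57.5% above 350 and up to 3000 bases, so the small loci lay between the shorter and the longer ones. Of the small loci 254, or 10.8%, reached 1 FPKM in a group and 39 reached 100 FPKM. Above 0 were 281 loci in knockout cells and 423 in wild type cells, and over all transcripts 97059 in knockout cells and 119701 in wild type cells. The summed level was 16170 FPKM in knockout cells and 18120 FPKM in wild type cells, which was 1.27% of all FPKM in knockout cells and 1.34% in wild type cells. Few loci carried it, since the 20 highest held 66.6% of the sum in knockout cells and 66.5% in wild type cells. By the tracking table, the second table the authors deposited, the sums were 18127 FPKM in knockout cells and 17695.5 FPKM in wild type cells, so the order of the groups turned with the table.

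The lengths had a broad peak at 290 to 300 bases, where 288 loci lay, and the most frequent single length was 297 bases, with 39 loci. This was also the length of RN7SL2 and RN7SL3 in the files. By size, the share of loci at 1 FPKM or more was 8.33% up to 140 bases, 13.2% above that and up to 170, 13.1% up to 230, 11.1% up to 290, 6.88% up to 310 and 11.7% up to 350 bases. The class that holds the peak of lengths thus had the lowest share. At the lower edge of the rule, 1 of the 14 shortest loci inside it and 0 of 12 loci that were 1 base shorter stood above 0. At the upper edge, 2 of 3 loci of 350 bases and 1 of 9 loci that were 1 base longer stood above 0.

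**Figure D1:**
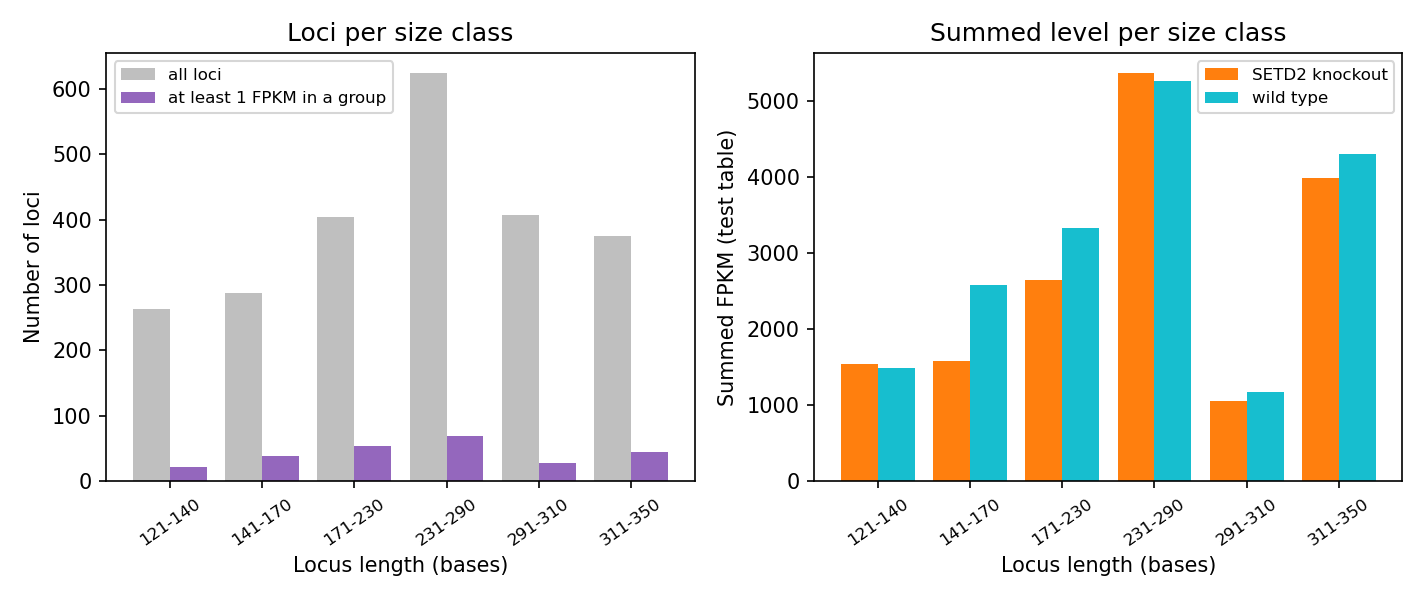
Number of loci (left, all loci and those that reached 1 FPKM) and summed FPKM in SETD2 knockout and wild type (right, test table) against locus length in bases, as bars per size class. The class with an upper limit of 170 bases held 1586 FPKM in knockout cells and 2573 FPKM in wild type cells, the widest gap of the 6 classes, and the sums of the other classes lay closer together.

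The authors' test set knockout cells against wild type cells for each transcript. No clone is named, so the loss of SETD2 cannot be told apart from other differences between these cells. Of 274 small loci that were tested, 5 passed the authors' q-value of 0.05, or 1.82%, against 0.255% of all 85852 transcripts tested. Higher in knockout cells were 3 of them, or 1.09%, against 0.0629% of all transcripts. Lower were 2, or 0.730%, against 0.192% of all transcripts. Among other loci with 1 transcript, 4.08% of 49 tested loci of up to 120 bases passed, and 2.70% of 1705 tested loci above 350 and up to 3000 bases. Both shares lie above that of the small loci, and the difference was not tested. Of the 5 called small loci, 4 were listed at 0 in a group. Where both groups stood above 0, 1 of 212 tested small loci passed, or 0.472%, against 0.204% of all such transcripts.

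That locus was RNU4-2, a gene of the spliceosomal U4 RNA. It lies at chr12:120729566-120729706 (hg19) and matched RefSeq by 9 ends of neighbouring genes. RNU4-2 fell to 179.1 FPKM in knockout cells, against 790.7 FPKM in wild type cells, in the authors' deposited table. This was a 4.41-fold lower level, a log2 fold of -2.14, with p = 5e-05 and q = 0.0220 in the authors' deposited table. From the tracking table, the values were 236.2 FPKM in knockout cells, with an interval of 89.3 to 383.2 FPKM, and 770.7 FPKM in wild type cells, with an interval of 333.9 to 1207 FPKM. The fold between them was 3.26, and the authors' intervals overlapped by a short stretch.

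The second U4 gene had the same direction. RNU4-1 lies at chr12:120730900-120731040 (hg19), and the starts of the pair were 1334 bases apart in the files and in RefSeq. It stood at 143.1 FPKM in knockout cells and 475.1 FPKM in wild type cells, which was 3.32-fold lower in knockout cells. Its p was 0.00020 and its q 0.0660 in the authors' deposited table, so it did not pass. In the tracking table it stood at 166.2 FPKM in knockout cells, with an interval of 51.8 to 280.5 FPKM, and at 463.1 FPKM in wild type cells, with an interval of 179.3 to 747.0 FPKM. The pair summed to 322.2 FPKM in knockout cells and 1266 FPKM in wild type cells, a 3.93-fold lower sum in knockout cells. Over the tracking table the same sum was 3.07-fold lower. Reads that match both genes cannot be told apart here, so the pair does not give 2 independent values.

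The other loci named as U4 were pseudogenes. Of 17 such copies, 1 stood above 0. This was RNU4-39P at chr11:66382435-66382561, with 14.0 FPKM in knockout cells and 21.7 FPKM in wild type cells (p = 0.609 in the authors' deposited table). Its wild type interval was 0 to 58.0 FPKM, which spans the knockout value. The named U4 loci together held 336.3 FPKM in knockout cells and 1288 FPKM in wild type cells, and the pair made up most of it.

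The loci around the U4 pair did not share its level of difference. The nearest locus, chr12:120719940-120720632 with 2 transcripts, summed to 484.5 FPKM in knockout cells and 656.2 FPKM in wild type cells, a log2 ratio of -0.44. By the tracking table, it held 570.1 FPKM in knockout cells and 641.0 FPKM in wild type cells. On the other side, chr12:120740119-120751144 summed to 3.31 FPKM in knockout cells and 1.83 FPKM in wild type cells, a log2 ratio of 0.86. Of the 5 other loci within 50000 bases of the pair, 3 were higher and 2 lower in knockout cells. Among the 3 higher, chr12:120759914-120765592 was close to 0, at 0.409 FPKM in knockout cells and 0.260 FPKM in wild type cells. None of the 5 held a transcript called at q 0.05 in the authors' deposited table, a call that 0.255% of all tested transcripts had.

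**Figure D2:**
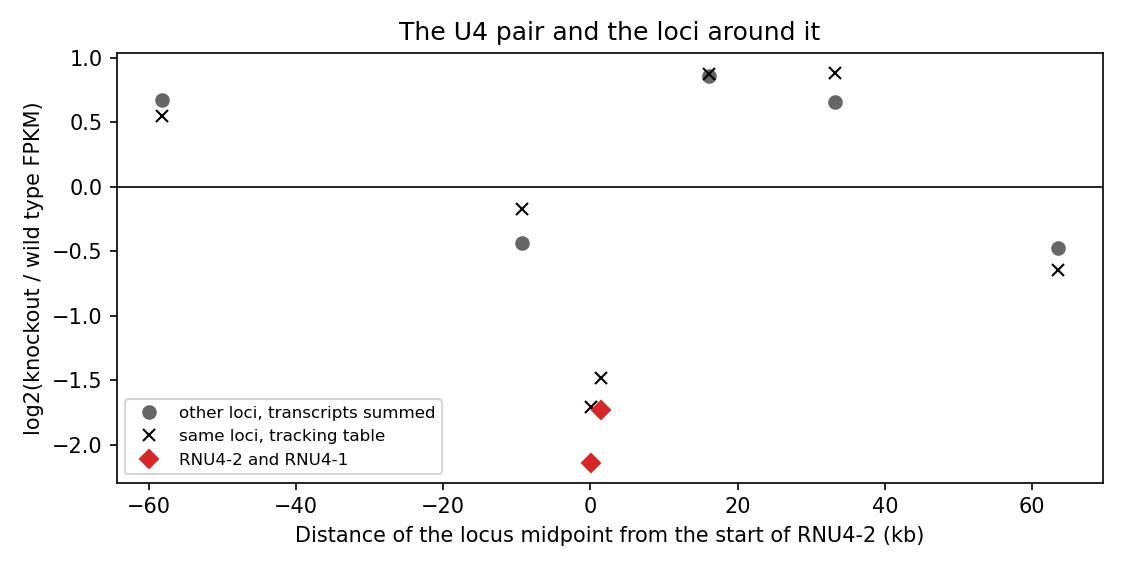
Log2 ratio of SETD2 knockout over wild type FPKM (vertical axis) against the distance of the locus midpoint from the start of RNU4-2 in kilobases (horizontal axis), for the U4 pair (diamonds) and the 5 other loci nearby (circles, summed over transcripts), with the tracking table as crosses. RNU4-2 at -2.14 and RNU4-1 at -1.73 lie below the other loci, which run from -0.48 to 0.86.

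RN7SK, the gene of 7SK RNA, is the locus at the chromosome 6 position that the rule names. It spans chr6:52860418-52860748 (hg19, 331 bases). It stood at 100.5 FPKM in knockout cells and 127.9 FPKM in wild type cells, a log2 fold of -0.35 that did not pass (p = 0.1765, q = 0.991 in the authors' deposited table). From the tracking table, it stood at 112.7 FPKM in knockout cells, with an interval of 68.2 to 157.2 FPKM, and at 124.7 FPKM in wild type cells, with an interval of 74.3 to 175.1 FPKM. Its intervals overlapped over most of their width. It ranked 35 by mean level among the 2362 small loci. Of its 57 pseudogene copies, 5 stood above 0 in a group and none reached 1 FPKM, so the gene itself carried nearly all of the 101.2 FPKM of the family in knockout cells and the 128.6 FPKM in wild type cells.

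The 7SL family was led by RN7SL2 and RN7SL3, both on chromosome 14 and both called genes by RefSeq. RN7SL2, at chr14:50329271-50329567, stood at 101.7 FPKM in knockout cells and 143.3 FPKM in wild type cells (p = 0.069, q = 0.991 in the authors' deposited table). RN7SL3, at chr14:50320336-50320632, stood at 33.4 FPKM in knockout cells and 63.9 FPKM in wild type cells (p = 0.0050, q = 0.695 in the authors' deposited table). The third by level was the pseudogene RN7SL737P, at chr12:93903263-93903544, with 17.2 FPKM in knockout cells and 27.6 FPKM in wild type cells. All 3 were lower in knockout cells in both tables, and none passed.

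The other 7SL copies were low. Of 144 7SL loci, 24 stood above 0 in a group and 7 reached 1 FPKM. Of the 24, 17 were listed at 0 in knockout cells and above 0 in wild type cells, and 3 the other way. The direction of this imbalance was the same in the wider sets, but the shares differed. Of the 467 small loci above 0 in a group, 186 were at 0 in knockout cells alone and 44 in wild type cells alone. Of all 127181 transcripts above 0 in a group, 30122 were at 0 in knockout cells alone and 7480 in wild type cells alone. The difference in shares was not tested. The family summed to 157.8 FPKM in knockout cells and 240.3 FPKM in wild type cells, a log2 ratio of -0.61. In the tracking table the sums were 192.5 FPKM in knockout cells and 234.4 FPKM in wild type cells, a log2 ratio of -0.28.

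Of the loci named as small nucleolar RNA genes, few stood above 0. Of the 467 small loci above 0 in a group, 397 had no name, so unnamed members of this and the other families may be among them. Those that share a locus with a host gene are outside the set. The highest named one was SNORA31B, an H/ACA RNA gene at chr13:45910449-45910582, with 88.8 FPKM in knockout cells and 113.7 FPKM in wild type cells (p = 0.568 in the authors' deposited table). Its tracking intervals were wide, 15.3 to 200.5 FPKM in knockout cells and 15.8 to 206.2 FPKM in wild type cells. Of the 53 small nucleolar RNA genes known by locus number, 2 stood above 0. The higher of them, LOC124901526 on chromosome 6, had 2.74 FPKM in knockout cells and 9.18 FPKM in wild type cells.

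The loci named as U1 and U2 were low. Of 35 named U1 loci 1 stood above 0, the pseudogene RNU1-88P, listed at 0 in knockout cells and at 4.78 FPKM in wild type cells. Of 14 U2 loci 4 stood above 0, and the highest, RNU2-61P, had 5.15 FPKM in knockout cells and 2.14 FPKM in wild type cells. The U2 loci summed to 10.8 FPKM in knockout cells and 7.63 FPKM in wild type cells, but to 7.02 FPKM in knockout cells and 7.44 FPKM in wild type cells by the tracking table, so their order turned. No named locus of U6atac or U4atac stood above 0.

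RMRP, the RNA of the nuclease RNase MRP, has the size of this set but was not a member, since its locus at chr9:35657748-35658015 held 2 transcripts. Its main transcript stood at 279.0 FPKM in knockout cells and 390.0 FPKM in wild type cells, a log2 fold of -0.48 (p = 0.048, q = 0.991 in the authors' deposited table). By the tracking table, the values were 340.2 FPKM in knockout cells and 380.3 FPKM in wild type cells, with overlapping intervals. Its second transcript, not tested by the authors, stood at 0.00318 FPKM in knockout cells and 0.00302 FPKM in wild type cells.

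**Figure D3:**
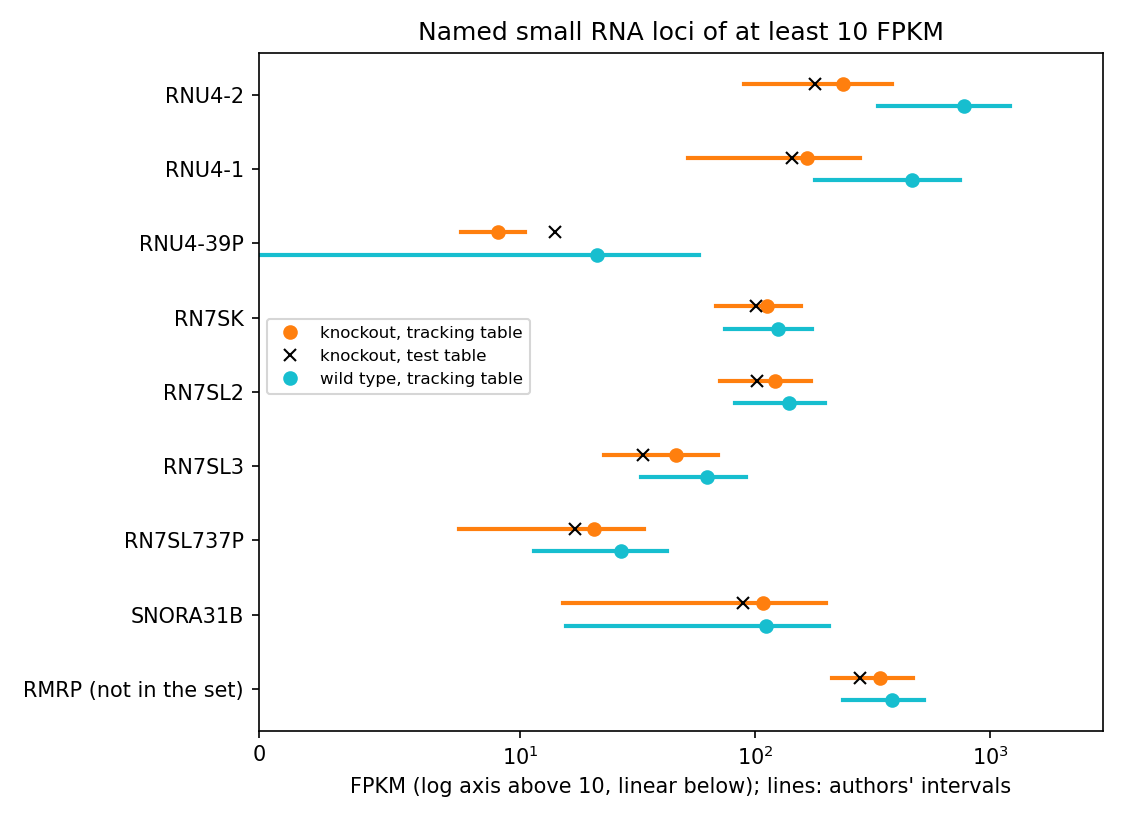
FPKM (horizontal axis, logarithmic above 10 and linear below) of the named structural RNA loci of at least 10 FPKM and of RMRP, with the knockout above the wild type in each row. Circles and lines are tracking values with the authors' intervals, and crosses are knockout values of the test table. The knockout circles lie left of the wild type circles in every row. Among these tracking values the gap on the log scale is widest for RNU4-2, RNU4-1 and RNU4-39P. In the test table RNU4-39P had a log2 fold of -0.63, against -0.94 for RN7SL3 and -0.68 for RN7SL737P.

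The highest small loci carried no name and differed little between the groups. The highest of all, chr2:177065636-177065980 with 345 bases, stood at 1868 FPKM in knockout cells and 1986 FPKM in wild type cells. By the tracking table it stood at 2268 FPKM in knockout cells and 1940 FPKM in wild type cells, so its direction turned. The next, chr1:108047825-108048070, stood at 966.2 FPKM in knockout cells and 893.5 FPKM in wild type cells. The third, chr15:56038837-56038965 with 129 bases, stood at 751.6 FPKM in knockout cells and 711.8 FPKM in wild type cells. The highest locus above 290 and up to 310 bases, chr5:165809310-165809604, stood at 239.8 FPKM in knockout cells and 208.7 FPKM in wild type cells. The locus chr2:203104292-203104435 led the class up to 170 bases, at 616.3 FPKM in knockout cells and 474.9 FPKM in wild type cells. None of the 10 highest had a RefSeq name, and none of them passed. Of the 39 loci that reached 100 FPKM in either group, 33 lay within 1.5-fold, 5 were lower and 1 was higher by more.

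Among these 10 a pair stood further apart. The locus chr9:80834036-80834273, of 238 bases, stood at 758.8 FPKM in knockout cells and 449.7 FPKM in wild type cells, 1.69-fold higher (p = 0.00185, q = 0.360 in the authors' deposited table). Its tracking values were 888.8 FPKM in knockout cells, with an interval of 581.0 to 1197 FPKM, and 438.8 FPKM in wild type cells, with an interval of 272.6 to 605.0 FPKM. The locus chr1:27975930-27976121 stood at 339.7 FPKM in knockout cells and 648.2 FPKM in wild type cells, 1.91-fold lower (p = 0.00060, q = 0.156 in the authors' deposited table). Its tracking intervals were 210.0 to 522.9 FPKM in knockout cells and 377.7 to 889.4 FPKM in wild type cells. In both cases the intervals overlapped and the difference did not pass.

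Across the 202 small loci that reached 1 FPKM in either group and were not at 0 in the other, the median log2 fold was -0.06, with quartiles of -0.48 and 0.49. Over all 56303 such transcripts it was 0.11. Higher in knockout cells were 96 of the 202 and lower 106. At 10 FPKM or more the median was -0.19 over 109 small loci and 0.02 over 15560 transcripts. From the tracking table, the median of the small loci at 1 FPKM was -0.01 and that of all transcripts 0.08. For the 39 loci of at least 100 FPKM the median turned from -0.19 in the test table to 0.07 in the tracking table. A shift of the whole set thus rested on the table used. These 39 were chosen by test-table values, and all reached 100 FPKM in wild type cells but only 35 in knockout cells. Loci that entered through wild type cells alone were lower in knockout cells by that choice. The knockout columns differed in their ratio (tracking over test), which between the 5th and the 95th percentile ran from 0.652 to 1.70 over 243 small loci, while that of the wild type columns ran from 0.974 to 0.980 over 258.

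**Figure D4:**
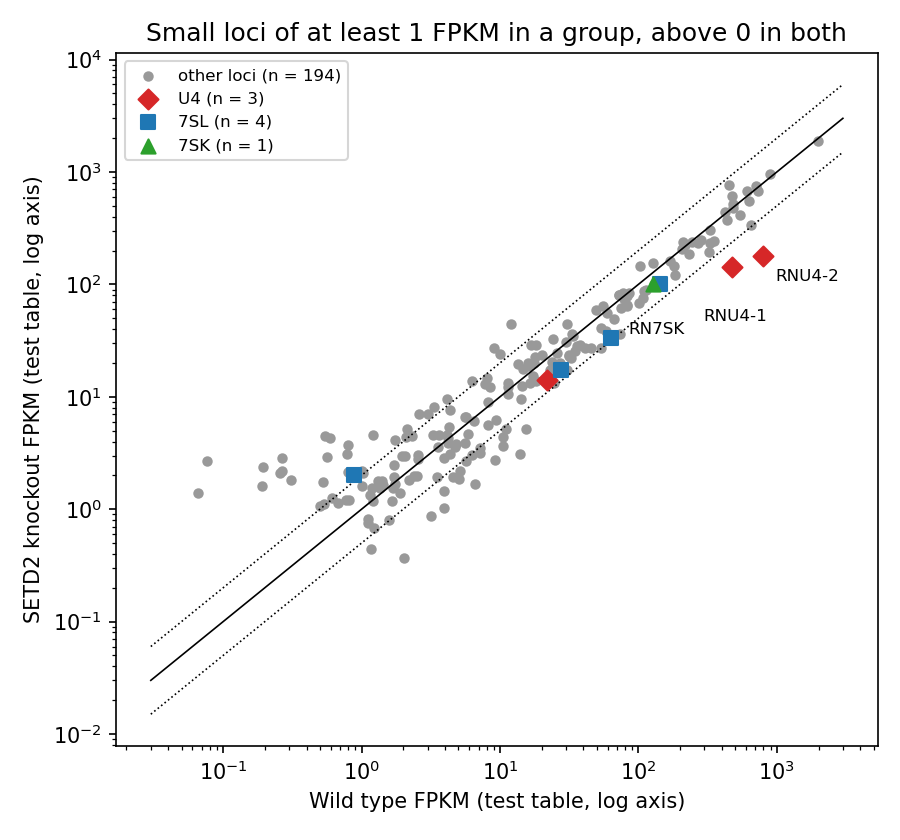
Knockout FPKM (vertical, log axis) against wild type FPKM (horizontal, log axis) from the test table for the 202 small loci that reached 1 FPKM in either group and were not at 0 in the other, with the lines of equal level and of a 2-fold difference. The U4 pair lies below the lower dotted line at a level where most loci lie near the diagonal. Of the 202 loci 55 differ at least 2-fold, or 27.2%, against 32.4% of all transcripts chosen in the same way. At 10 FPKM or more 12 of 109 small loci do, against 17.9% of all such transcripts.

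Of the 109 small loci that reached 10 FPKM and were not at 0 in either group, the most negative log2 folds beside the U4 pair were at low levels and none passed. The locus chr20:37590568-37590754 stood at 3.12 FPKM in knockout cells and 14.0 FPKM in wild type cells, but at 24.1 FPKM in knockout cells and 13.7 FPKM in wild type cells by the tracking table, so its direction turned. The locus chr14:64228731-64228867 stood at 5.18 FPKM in knockout cells and 15.3 FPKM in wild type cells. At chr12:63396249-63396575 the levels were 3.66 FPKM in knockout cells and 10.5 FPKM in wild type cells (p = 0.0219 in the authors' deposited table).

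The most positive log2 folds were also at low levels, and none passed. The locus chr9:66836662-66836791 stood at 44.7 FPKM in knockout cells and 12.03 FPKM in wild type cells, 3.72-fold higher (p = 0.122 in the authors' deposited table). At chr22:32782655-32782855 the levels were 27.0 FPKM in knockout cells and 9.03 FPKM in wild type cells (p = 0.0437 in the authors' deposited table). By the tracking table they were 17.6 FPKM in knockout cells and 8.82 FPKM in wild type cells. At chr21:18872997-18873142 the levels were 24.2 FPKM in knockout cells and 10.03 FPKM in wild type cells (p = 0.329 in the authors' deposited table). Its tracking intervals did not overlap, at 20.3 to 31.5 FPKM in knockout cells and 6.13 to 13.4 FPKM in wild type cells. At the rest of the 5 most positive folds the intervals overlapped. The last of the 5 most positive folds were at chr11:126049392-126049593, 2.21-fold higher, and at chr6:27482818-27483053, 1.84-fold higher.

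The other 4 called loci were listed at 0 in a group. COX8CP1, a pseudogene at chr6:28601158-28601371, was called higher, at 4.95 FPKM in knockout cells and 0 in wild type cells, with q = 0.0220 in the authors' deposited table. GSTP1P1, a pseudogene at chr12:56294084-56294402, was called higher at 2.39 FPKM in knockout cells and 0 in wild type cells, and a locus without a name at chr3:195647715-195648000 at 1.80 FPKM in knockout cells and 0 in wild type cells. In the tracking table knockout cells had 3.22 FPKM at COX8CP1, 1.55 FPKM at GSTP1P1 and 1.17 FPKM at the unnamed locus, each 0.652 times the test-table value. The locus chr7:128293740-128293989 was called lower, at 0 in knockout cells and 8.20 FPKM in wild type cells. The tracking table lists it at 4.13 FPKM in knockout cells, inside the wild type interval of 0.0268 to 15.97 FPKM.

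Most loci with a small unadjusted p-value were listed at 0 in a group. Of the 274 tested small loci, 75 had an unadjusted p under 0.05 in the authors' deposited table, or 27.4%, against 2.38% of all transcripts. Of these, 58 were listed at 0 in a group, 35 in knockout cells and 23 in wild type cells. Of all tested small loci listed at 0 in 1 group, 93.5% had such a p, against 3.71% of all such transcripts and 98.7% of such longer loci with 1 transcript, up to 3000 bases. Where both groups were above 0, 8.02% of 212 small loci had such a p. For all transcripts the share was 2.20%, and for 1629 of those longer loci it was 11.2%. In this respect the small loci stood nearer to those longer loci than to all transcripts. These shares are not given here for the shorter loci with 1 transcript. Of the 17 small loci with such a p and both groups above 0, 13 were lower and 4 higher in knockout cells. No such split is given here for all transcripts or for the longer loci. Whether this direction is particular to the small loci was therefore not tested.

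Of the small loci, 186 were listed at 0 in knockout cells and above 0 in wild type cells, and 44 the other way. The same imbalance ran through the whole table, with 30122 transcripts at 0 in knockout cells alone and 7480 in wild type cells alone. The 186 had a median of 0.277 FPKM in wild type cells and 34 of them reached 1 FPKM. The 44 had a median of 0.689 FPKM in knockout cells and 18 reached 1 FPKM, the highest being chr6:27599188-27599311 at 25.5 FPKM. For all 44 the tracking value was within 1% of 0.652 times the test-table value, which held for 42.8% of the 243 small loci of at least 0.5 FPKM in knockout cells and for 28.2% of all transcripts. Neither the headers nor the labels say how many of the 3 libraries of each genotype went into a column, and the part of that in these zeros was not tested.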

How the data were processed

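Ribosomal RNA had been removed with a depletion kit before sequencing, per the labels' protocols, and the label of 1 wild type library carries a ChIP protocol instead. No source used here says which RNA sizes the kits kept. Another 8 samples, from ChIP, were not used here. TopHat, Bowtie 1.1.2, Cuffdiff and build hg19 appear in the submitters' processing notes, with no role or order. The authors deposited FPKM values, 1 per transcript and group, in a tracking table with lower and upper bounds of unstated level and in a test table with log2 folds, a test statistic (a score), p-values and q-values, per the file headers. Where no table is named, levels and folds are those of the test table. The deposited log2 fold is wild type over knockout, and its sign was turned. Over the small loci the turned fold and one computed from both levels were apart by at most 1e-05. Starts were made 1-based. FPKM of loci this short depend on the length correction, so levels of loci of different length were not ranked as molecules.

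A name was accepted where a RefSeq gene of at most 2 times the length, or no less than its inverse, sharing an end with the locus had at least 4 neighbouring gene ends within 500000 bases at equal distances, while any other gene had at most 0.5 times as many. This uses spacing only, and no coordinates were converted. The method was devised after the data were seen, and its minimum of 4 ends was set after a look at the scores of the highest loci. Of the transcript IDs, 0 matched the name tables directly. RNU4-2, RNU4-1, RN7SK and the other names rest on this spacing, and RN7SK also on the position that defines the set. RMRP was named by that position only. The lists of partner proteins planned for these RNAs were not counted, since the files pair no names with transcripts and no names were sought for longer genes.

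No test was run here: calls are the authors' q-value at 0.05. The loci chosen for description were the one at the position of RN7SK, the called loci, the 10 highest and the highest of each size class. Also chosen were the 5 most positive and 5 most negative log2 folds at 10 FPKM or more. The named structural RNA families were added after their values were seen. The set, the lists and the rule were chosen with earlier results of these data known. Alternatives were the other table, other q thresholds, pseudocounts of 1 and 0.1, other minimum levels and a narrower size range. The scripts ran under Python 3.11.15 with numpy 2.4.6, pandas 2.3.3 and, for figures, matplotlib 3.10.9.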

Additional observations from a re-analysis of the deposited data

How the results depend on the processing

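Of 74 recomputed values, 69 stayed within 1.5-fold of the reported one, with log2 folds and log2 ratios compared as folds. A log2 fold near 0 could thus change sign and still count as within. A pseudocount of 1 could hardly move loci at high levels, so this count says little about those. The number of called small loci was 5, and it became 8 at a q-value threshold of 0.10, 3 where the authors' intervals also had to be apart and 1 where both groups had to be above 0. The 3 with intervals apart are those listed at 0 in the wild type, whose interval there is 0 to 0, so RNU4-2 was not among them. The median log2 fold of the small loci, -0.06, ran from -0.19 at 10 FPKM to 0.05 with no minimum, and thus changed sign. The log2 ratio of the summed FPKM, -0.16, was 0.03 in the tracking table and -0.31 without the 10 highest loci. Of 25 loci chosen for description, with or without a RefSeq name, 4 changed sign in the tracking table (chr2:177065636-177065980, chr9:111389113-111389430, chr11:111759923-111760198 and chr20:37590568-37590754). Of the 25, 2 moved by more than 1.5 times in that table. The called locus on chromosome 7 moved to -0.81 against -3.20 (both with a pseudocount of 1). The locus at chr20:37590568-37590754 moved to 0.81 against -2.17. RNU4-2 had a log2 fold of -2.14 in the test table and -1.71 in the tracking table. No paired analysis was possible because the columns hold group values only, and for the same reason no library could be left out. Depth is unknown, so a value of 0 says only that none was listed.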

Other observations

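Small loci also lay in runs. In 57 runs of 3 or more small loci, with at most 50000 bases between neighbours, there were 249 loci, and 18 runs held a value above 0. The longest run, of 21 loci at chr22:23003769-23262023, summed to 0 FPKM in knockout cells and 0.779 FPKM in wild type cells. The run with the highest sum, 3 loci at chr2:156119970-156170880, held 671.1 FPKM in knockout cells and 609.3 FPKM in wild type cells, all from the locus at chr2:156126145-156126399. The third-ranked run, 3 loci at chr6:26195794-26272768, held 4.51 FPKM in knockout cells and 0.544 FPKM in wild type cells, all from the histone H1 pseudogene H1-12P. A run of 5 loci at chr12:14322680-14408160 held 12.5 FPKM in knockout cells and 8.43 FPKM in wild type cells.

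Pseudogenes of protein-coding messages were among the named loci as well. HSPB1P1, a copy of a small heat shock protein message on chromosome 9, stood at 38.5 FPKM in knockout cells and 58.7 FPKM in wild type cells (p = 0.0912 in the authors' deposited table). CPSF6P1, on chromosome 19, stood at 12.3 FPKM in knockout cells and 11.5 FPKM in wild type cells. LSM6P2, a copy of the message of an RNA-binding Lsm protein on chromosome 12, stood at 18.7 FPKM in knockout cells and 15.8 FPKM in wild type cells. In the tracking table CPSF6P1 stood at 10.6 FPKM in knockout cells and 11.2 FPKM in wild type cells, and LSM6P2 at 14.7 FPKM in knockout cells and 15.5 FPKM in wild type cells, so the direction of both turned. They were chosen after their values were seen, none passed, and reads of their parent genes could not be told apart from their own.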
